A study of Arabidopsis thaliana with 22 samples.

Results

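Regions of the Arabidopsis thaliana genome at which ZMP and RNA polymerase IV (Pol IV) both gave chromatin immunoprecipitation (ChIP-seq) peaks were examined, in inflorescences of the Col-0 ecotype. Peaks were pooled from the 2 lists of HA-tagged ZMP (ZMP-HA) and the 2 lists of HA-tagged NRPD1, the largest Pol IV subunit, in wild-type plants (WT NRPD1-HA). Each list was first cleaned of peaks that touched a peak of its own plants without a transgene, and peaks sharing at least 1 base were then merged into 9893 regions on chromosomes 1 to 5. A region with a peak in all 4 lists was called co-occupied, and 2543 regions met this rule. The ZMP-HA plants carried pZMP::ZMP-HA and the NRPD1-HA plants pNRPD1::NRPD1-HA, so each tagged protein was expressed from its own promoter, and both lines are labelled as WT in genotype. NRPD1-HA was also profiled in the zmp-2 mutant, which has a T-DNA insertion in ZMP, and the histone mark H3K4me3 was profiled in plants without a transgene, in 1 library. Of the 22 samples, 11 are inputs. ZMP-HA with its controls without a transgene (set B) and NRPD1-HA with its own (set A) were separate experiments, with 2 biological replicates of each group per the series' design text, so that protein and experiment cannot be told apart.

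Pol IV is a plant-specific polymerase that begins RNA-directed DNA methylation (RdDM). RDR2, an RNA polymerase that copies RNA, works together with it, and DCL3 dices the product. DRM2 is the main methyltransferase of the pathway, which acts mostly at transposable elements and other repeats and sets DNA methylation outside as well as inside the CG context. ZMP is a chromatin protein with a zinc finger, an MDM2/SWIB domain and a Plus-3 domain that was studied as a partner of Pol IV. Co-occupancy by peak lists shows that both proteins crosslinked near the same DNA in a tissue, not that they sat on the same molecule.

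The cleaned lists held 6983 and 6455 ZMP peaks and 6774 and 7097 Pol IV peaks. The peak caller gives each peak a fold enrichment over background at its summit, the base of highest signal. This fold reached 19.0 and 19.2 in the ZMP lists, against 254.5 and 237.7 in the Pol IV lists, so strength was compared as a percentile within each cleaned list (100 being the strongest peak). The background coverage that the caller used for the most peaks, solved from the deposited fold and p-value, was 29.08 and 25.04 fragments per base for ZMP-HA replicates 1 and 2, and 24.88 and 40.84 for WT NRPD1-HA replicates 1 and 2. A deeper library passes the calling threshold at weaker enrichment. An H3K4me3 peak lay on 8 of 9 floral identity genes, LFY being the exception, but also on 22 of 24 genes of the RdDM machinery, so these counts do not check the tissue.

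The sequences at the summits of the strongest shared regions are given first, because they ranked near the top of all 4 lists. The mean ZMP and mean Pol IV summits were 9, 10 and 0 bases apart at arm regions 1 and 4 and pericentromeric region 3, and 93 bases apart at pericentromeric region 1. They are on the plus strand of TAIR10.1 (RefSeq), lower case, with the bases between the outermost of the 4 library summits in capitals and 30 bases on each side. The first lies at chr3:1210633-1210728, intergenic, downstream of the exportin-4 gene AT3G04490. The second lies at chr4:13902877-13902958, downstream of PYL10, a member of the abscisic acid receptor family. The third lies at chr3:15682331-15682520, in a transcribed pseudogene (AT3G43832), and the fourth at chr4:5439038-5439124, in the coding sequence of AT4G08545, annotated as a receptor-like protein with leucine-rich repeats.
Arm region 1: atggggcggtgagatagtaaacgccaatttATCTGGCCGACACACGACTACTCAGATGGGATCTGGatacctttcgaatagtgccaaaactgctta
Arm region 4: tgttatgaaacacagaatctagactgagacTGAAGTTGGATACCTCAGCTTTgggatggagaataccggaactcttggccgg
Pericentromeric region 1: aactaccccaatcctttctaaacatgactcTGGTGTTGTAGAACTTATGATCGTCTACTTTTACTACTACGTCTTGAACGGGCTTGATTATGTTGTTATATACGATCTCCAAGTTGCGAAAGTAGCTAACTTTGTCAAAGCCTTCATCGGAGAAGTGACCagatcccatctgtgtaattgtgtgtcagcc
Pericentromeric region 3: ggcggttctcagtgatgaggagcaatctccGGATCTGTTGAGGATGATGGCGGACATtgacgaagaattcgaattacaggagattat

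A second set is shown because there the proteins shared a region but peaked apart, while the replicates of each protein agreed within 100 bases. The pairs come from the arm region at chr5:6348800-6351890, the arm region over LHCA2 at chr3:22746249-22748592, and the pericentromeric region at chr4:2787571-2789811. Capitals here run between the 2 replicate summits of the named protein. The windows start and end at chr5:6349158-6349266 and chr5:6351368-6351476, at chr3:22746712-22746845 and chr3:22748101-22748201, and at chr4:2787715-2787855 and chr4:2789426-2789537, the ZMP window before the Pol IV window in each pair.
Chromosome 5, ZMP: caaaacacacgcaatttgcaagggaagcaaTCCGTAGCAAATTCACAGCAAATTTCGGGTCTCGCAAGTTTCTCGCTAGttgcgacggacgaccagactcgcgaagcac
Chromosome 5, Pol IV: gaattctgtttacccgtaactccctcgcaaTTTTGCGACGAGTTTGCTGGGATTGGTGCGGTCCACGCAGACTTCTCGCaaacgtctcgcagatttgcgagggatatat
LHCA2, ZMP: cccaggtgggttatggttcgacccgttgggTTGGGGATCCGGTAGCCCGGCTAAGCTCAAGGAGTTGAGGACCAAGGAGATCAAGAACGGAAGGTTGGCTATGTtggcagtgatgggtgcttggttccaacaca
LHCA2, Pol IV: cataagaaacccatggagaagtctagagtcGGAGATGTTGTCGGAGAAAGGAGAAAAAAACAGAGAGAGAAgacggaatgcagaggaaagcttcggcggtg
Chromosome 4, ZMP: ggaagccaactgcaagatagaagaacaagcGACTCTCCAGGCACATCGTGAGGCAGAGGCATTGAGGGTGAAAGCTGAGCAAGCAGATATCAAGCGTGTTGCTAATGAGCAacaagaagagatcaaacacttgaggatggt
Chromosome 4, Pol IV: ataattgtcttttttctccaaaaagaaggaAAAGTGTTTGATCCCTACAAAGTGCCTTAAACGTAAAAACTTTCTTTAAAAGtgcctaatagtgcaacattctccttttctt

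How far ZMP sites were also Pol IV sites differed between the chromosome arms and the gene-poor pericentromeres, the runs of 100 kb windows with a protein-coding gene density under 50% of the chromosome's median, 14.4% of the 5 chromosomes. Co-occupied regions numbered 1710 in arms, 28.7% of all 5949 merged regions there, and 833 in pericentromeres, 21.1% of 3944. A ZMP site, a region with a peak in both ZMP-HA lists, was co-occupied in 77.8% of 2199 cases in arms (95% exact binomial interval 76.0 to 79.5) and in 43.8% of 1904 cases in pericentromeres (41.5 to 46.0). For Pol IV sites, with a peak in both WT NRPD1-HA lists, the order was the other way round, with 45.2% of 3780 co-occupied in arms (43.6 to 46.8) and 60.1% of 1385 in pericentromeres (57.5 to 62.7). These intervals cover counting error over regions only, and regions are not replicates of the experiment. The direction held on each of the 5 chromosomes, where 66.5% to 83.8% of ZMP sites were co-occupied in arms and 34.0% to 54.6% in pericentromeres, and 43.7% to 47.2% of Pol IV sites in arms and 58.7% to 62.2% in pericentromeres. Chromosome 2 had the most arm ZMP sites (565) and the lowest co-occupied share of them. Its pericentromeric windows ran from base 3800001 to base 6100000. Centromere positions were not used, so arms means all sequence outside the windows of low gene density.

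**Figure D1:**
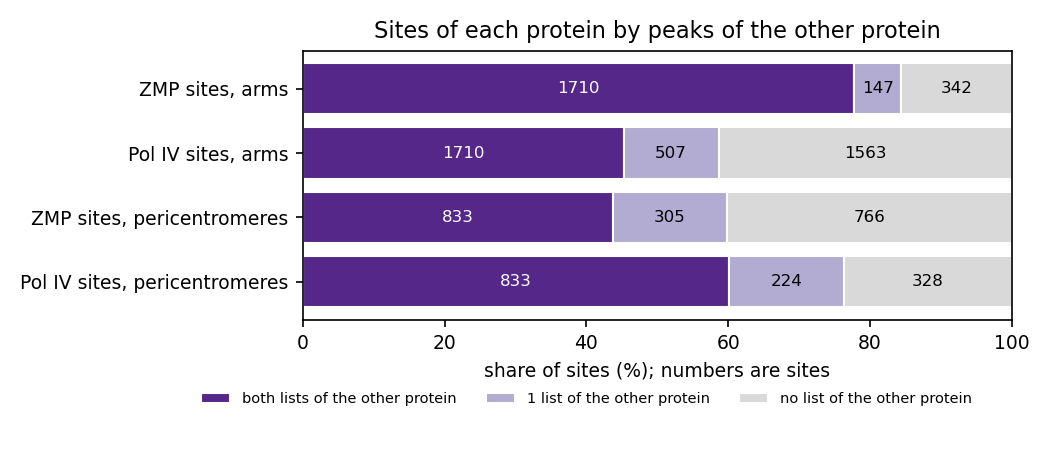
Share of ZMP sites and Pol IV sites (percent, horizontal axis) with a peak of the other protein in both lists, in 1 list or in no list, in arms and pericentromeres; numbers in the bars are sites. ZMP sites are mostly co-occupied in arms (1710 of 2199) and less often in pericentromeres (833 of 1904).

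The ZMP sites without a Pol IV peak in either list numbered 342 in arms (15.6%) and 766 in pericentromeres (40.2%). Of these, 196 in arms (57.3%) and 193 in pericentromeres (25.2%) did hold a deposited Pol IV peak that had been removed because it touched a set A peak of plants without a transgene. ZMP sites with no Pol IV peak even before cleaning were therefore 146 in arms and 573 in pericentromeres. Of the co-occupied regions, 24 in arms (1.404%) and 29 in pericentromeres (3.48%) touched a removed Pol IV peak. When every list was cleaned against all 4 control lists, 83.6% of ZMP sites were co-occupied in arms and 48.7% in pericentromeres. Without any cleaning the shares were 87.2% and 52.0%, and the arms stayed above the pericentromeres. Pol IV sites without a ZMP peak numbered 1563 in arms (41.4%) and 328 in pericentromeres (23.7%), and 5 and 20 of them touched a removed ZMP peak.

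The share of co-occupied sites was higher among stronger sites. When ZMP sites of the arms were split into quartiles by their mean ZMP percentile, 54.0%, 78.0%, 88.5% and 90.6% were co-occupied from the weakest to the strongest quartile. In pericentromeres the shares were 20.0%, 36.6%, 48.3% and 70.2%, so the strongest pericentromeric quartile had a lower share than the second quartile of the arms. Among Pol IV sites, the shares by Pol IV percentile were 31.2%, 34.2%, 49.1% and 66.5% in arms and 54.5%, 61.0%, 59.3% and 65.9% in pericentromeres. In arms the co-occupied regions had median ZMP percentiles of 81.1 and 80.1 in replicates 1 and 2, against 57.8 and 49.5 for ZMP sites without Pol IV. Their median Pol IV percentiles were 78.4 and 72.2, against 51.1 and 64.9 for Pol IV sites without ZMP. In pericentromeres the Pol IV percentiles of the same classes overlapped, at 47.2 and 40.3 in co-occupied regions and 36.0 and 46.4 without ZMP.

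Summits of the 2 proteins lay close together in arms and farther apart in pericentromeres. In the 1710 arm regions the median distance was 81 bases between ZMP-HA replicate 1 and WT NRPD1-HA replicate 1, 139 bases between ZMP-HA replicate 1 and WT NRPD1-HA replicate 2, 95.5 bases between ZMP-HA replicate 2 and WT NRPD1-HA replicate 1, and 150 bases between the replicates 2. Their mean was 116 ± 33.3 bases (SD, n = 4 pairs of libraries), against 79 bases between the ZMP replicates and 60 bases between the Pol IV replicates. Here and below, each library enters 2 of the 4 pairs, so the pairs are not independent and the SD only describes their spread. The closest pair of ZMP and Pol IV libraries was thus within 2 bases of the distance between ZMP replicates, and all 4 pairs exceeded both replicate distances. The labels state that chromatin was sonicated to 300 bases, which is longer than each of these medians.

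In the 833 pericentromeric regions the 4 distances were 186, 508, 272 and 534 bases in the same order of pairs, a mean of 375 ± 173 bases (SD, n = 4 pairs). Replicates lay 152 bases apart for ZMP and 154 bases for Pol IV. All 4 pairs of ZMP and Pol IV libraries again exceeded both replicate distances, but the exact permutation test over the 3 ways to pair 4 libraries gave p = 0.333 in arms and in pericentromeres, the smallest p this design allows. In both compartments the pairs with WT NRPD1-HA replicate 2, the library with the highest background coverage, were the most distant. Leaving out that library also changed the regions, which then needed a peak only in the remaining lists. The means were then 88.0 bases over 1865 arm regions and 182 bases over 1108 pericentromeric regions. Without WT NRPD1-HA replicate 1 they were 145 bases over 1774 arm regions and 435 bases over 970 pericentromeric regions. The part of depth in this was not tested.

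As a share of the merged region's length, the median distance between proteins was 5.80% to 11.3% in arms and 9.83% to 18.8% in pericentromeres. Replicates lay 4.26% to 5.04% of the region's length apart in arms and 6.38% to 7.86% in pericentromeres. Regions with several peaks per list were more frequent in pericentromeres. Each list had a single peak in 68.6% of arm regions and 40.9% of pericentromeric regions, and over these 1173 and 341 regions the mean distance was 85.0 bases in arms and 150 bases in pericentromeres (chosen after seeing the data). Taking the nearest pair of summits instead of the strongest peaks gave 101 and 177 bases. All 4 summits fell within 200 bases of one another in 44.7% of arm regions and 18.6% of pericentromeric regions.

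**Figure D2:**
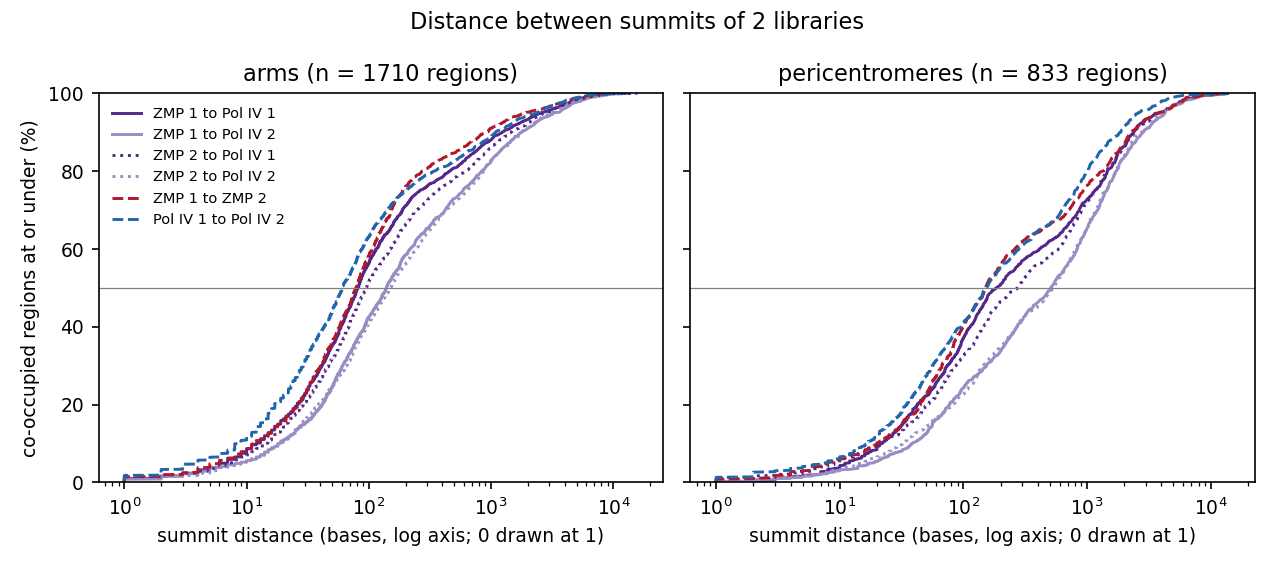
Cumulative share of co-occupied regions (percent, vertical axis) by the distance between the summits of 2 libraries (bases, log axis), with the 4 pairs of ZMP and Pol IV libraries in purple and the replicate pairs dashed. In arms the curves cross 50% between 60 and 150 bases, and in pericentromeres between 152 and 534 bases.

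The 5 strongest shared regions of each compartment, those whose lowest percentile over the 4 lists was highest, had nearly coinciding summits. In arms the distance between the mean ZMP and mean Pol IV summit was 9, 7, 10, 10 and 23 bases. In pericentromeres it was 93, 1, 0, 55 and 130 bases. The closest single ZMP and Pol IV libraries were 12 and 11 bases apart at pericentromeric regions 2 and 3, farther than these means. Arm region 1 had fold enrichments of 19.0 and 18.3 for ZMP and 247.6 and 229.4 for Pol IV, at percentiles of 99.94 or more in each list. Its ZMP peaks covered 2071 and 1992 bases and its Pol IV peaks 3092 and 3047 bases. The ZMP and Pol IV summits stood 711 and 720 bases from the gene for exportin-4. Arm region 4, near PYL10, showed the narrowest ZMP peaks of the 5, of 1045 and 1110 bases, against 2580 and 2429 bases for Pol IV, with folds of 13.3 and 15.2 for ZMP and 177.3 and 209.6 for Pol IV. The summits of arm regions 2 and 3 lay upstream of RECQSIM, a RecQ-type helicase, and NADP-ME2, an NADP-malic enzyme, genes that these regions overlapped. Arm region 5 (chr4:7591354-7594409) had its summits within AT4G05995, a gene for a long non-coding RNA.

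Pericentromeric region 1 (chr3:15680118-15684595) had the highest ZMP fold of replicate 2 and the highest Pol IV fold of replicate 1, with 16.0 and 19.2 for ZMP and 254.5 and 223.0 for Pol IV. Region 3 (chr4:5437758-5443118), over AT4G08545, had 11.04 and 14.11 for ZMP and 244.2 and 197.2 for Pol IV. Its mean summits coincided to the base, while its closest single ZMP and Pol IV libraries were 11 bases apart. Regions 2 and 5 were long and held 2 or 3 peaks in each ZMP list. Region 2 (chr4:4093864-4111163) was covered by 9072 and 9658 bases of ZMP peaks and 12814 and 16384 bases of Pol IV peaks. All 10 of these regions also had peaks in both cleaned zmp-2 NRPD1-HA lists, as did 94.5% of all co-occupied regions in arms and 65.8% in pericentromeres.

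Separated summits were the exception among regions where the position was well defined. Of the regions with 1 peak in each list and replicates that agreed within 100 bases, all 4 ZMP to Pol IV distances were above 100 bases in 85 of 597 in arms (14.2%) and in 24 of 103 in pericentromeres (23.3%). They were above 500 bases in 18 and 11 of these regions. In the arm region on chromosome 5 whose windows are printed above, the mean summits stood 2210 bases apart, at opposite ends of peaks of 2769 and 2707 bases for ZMP and 3022 and 3028 bases for Pol IV. They stood on opposite sides of the pseudogene AT5G19015, with the ZMP summit 550 bases downstream and the Pol IV summit 473 bases upstream of it. Percentiles in this region were 98.5 and 97.2 for ZMP and 96.7 and 96.2 for Pol IV.

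At LHCA2, which encodes a light-harvesting protein of photosystem I, the ZMP summit lay in the coding sequence and the Pol IV summit 707 bases downstream of the gene, 1372 bases away. ZMP folds were 6.77 and 4.19 and Pol IV folds 12.3 and 5.00. At chr1:18579831-18581777 the ZMP summit was in the coding sequence of AT1G50160, a ribonuclease H family gene, and the Pol IV summit 1066 bases away and upstream of it. In pericentromeres, the region at chr4:2787571-2789811 had its ZMP summit in an exon of the pseudogene AT4G05505 and its Pol IV summit 175 bases downstream of the microRNA precursor gene MIR405d, 1696 bases away. At chr4:5504593-5508327 the ZMP summit was in an intron of AT4G08630 and the Pol IV summit in the coding sequence of SULTR1;1, a sulfate transporter gene, at a distance of 1481 bases. At chr2:5365287-5371150 both summits, 1679 bases apart, were in exons of the pseudogene AT2G13050.

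**Figure D3:**
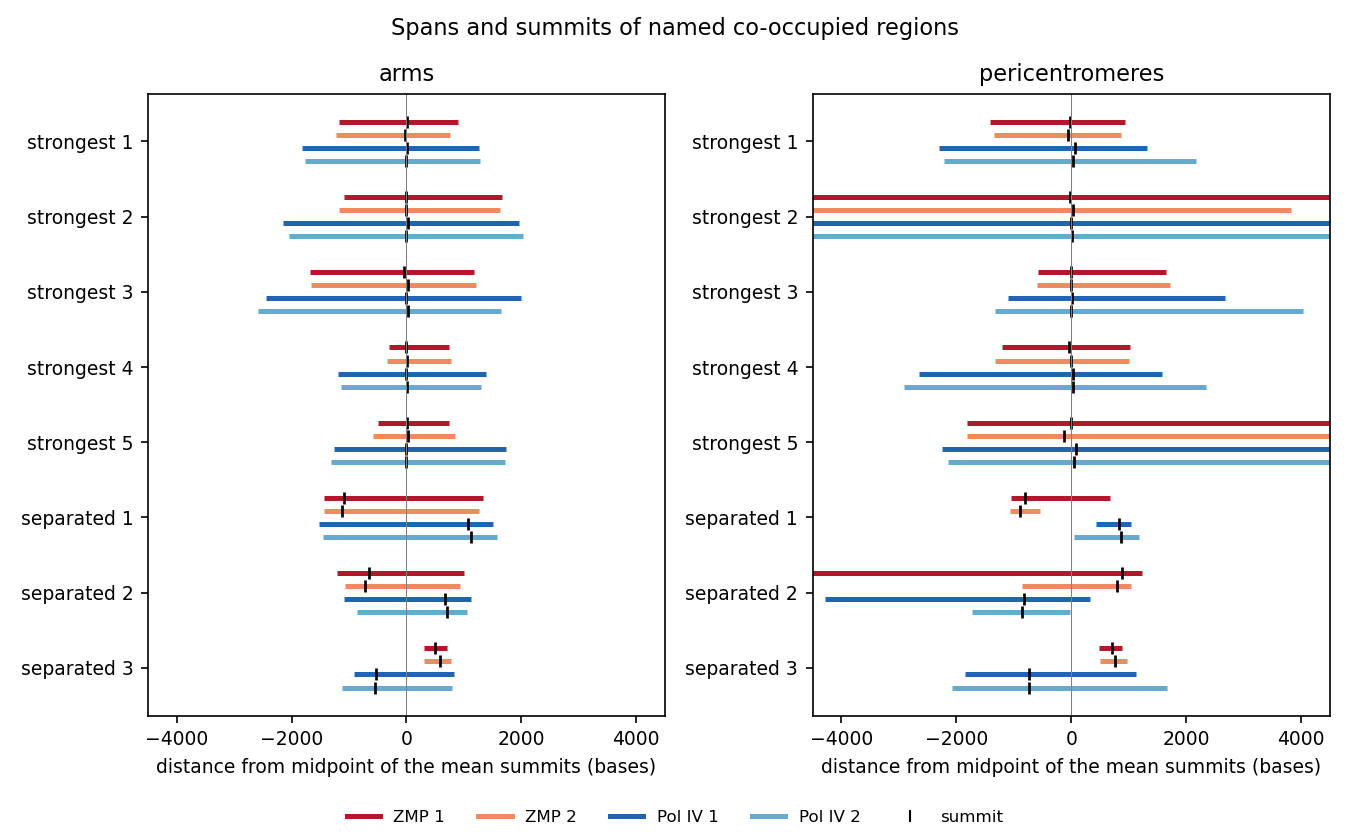
Span from the first to the last peak base of each library (coloured lines) and its summit (black tick) at the 5 strongest and 3 separated co-occupied regions of each compartment, as distance in bases from the midpoint of the mean ZMP and mean Pol IV summits; lines that reach the frame run on beyond it. The mean ZMP and mean Pol IV summits of the strongest arm regions differ by 7 to 23 bases. Those of the separated arm regions differ by 1066 to 2210 bases, with the replicates of each protein on the same side.

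ZMP peaks were narrower than Pol IV peaks at the same regions, more evenly so in arms. The median number of bases covered in the 1710 arm regions was 937.5 and 823.5 in the ZMP-HA lists, against 1339.5 and 1388 in the WT NRPD1-HA lists. Both ZMP libraries were below both Pol IV libraries. The median log2 ratio of ZMP width over Pol IV width was -0.41 and -0.43 for ZMP-HA replicate 1 with WT NRPD1-HA replicates 1 and 2, and -0.60 and -0.62 for ZMP-HA replicate 2. The mean was -0.51 ± 0.11 (SD, n = 4 pairs), with 0.13 between the ZMP replicates and -0.01 between the Pol IV replicates. ZMP was the narrower protein in 83.3% to 93.3% of arm regions.

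In pericentromeres the median widths were 1747 and 1184 bases for ZMP, against 1776 and 2040 bases for Pol IV. The log2 ratios were -0.11, -0.24, -0.51 and -0.81 in the same order of pairs, a mean of -0.42 ± 0.31 (SD, n = 4 pairs), while the ZMP replicates differed from each other by 0.44 and the Pol IV replicates by -0.18. The width difference in pericentromeres was thus not larger than the difference between the ZMP replicates. Its mean was -0.70 without ZMP-HA replicate 1, -0.24 without ZMP-HA replicate 2 and -0.25 without WT NRPD1-HA replicate 2. Each of these means was over the regions with a peak in all remaining lists. ZMP was narrower in 56.3% to 77.2% of the co-occupied pericentromeric regions. The exact permutation test of the 2 ZMP against the 2 Pol IV library medians, two-sided, gave p = 0.333 in arms and in pericentromeres, the smallest p possible.

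**Figure D4:**
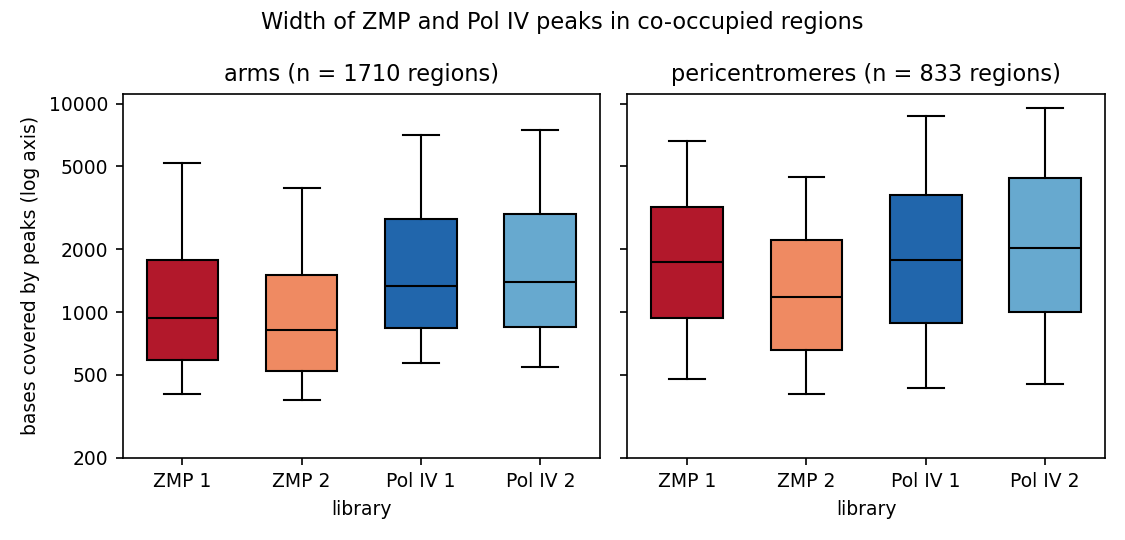
Bases covered by the peaks of each library (log axis) in co-occupied regions, with boxes from the first to the third quartile, the median as a line and whiskers from the 5th to the 95th percentile of regions. Medians in arms are 937.5 and 823.5 bases for ZMP and 1339.5 and 1388 for Pol IV; in pericentromeres ZMP replicate 1 (1747 bases) nearly reaches Pol IV replicate 1 (1776 bases).

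In arms the ZMP peaks mostly lay inside the Pol IV peaks. The whole ZMP span fell inside the Pol IV span in 60.3% to 78.8% of arm regions over the 4 pairs of libraries, and the Pol IV span inside the ZMP span in 2.81% to 7.02%. In pericentromeres ZMP lay inside Pol IV in 34.7% to 52.2% of regions and Pol IV inside ZMP in 10.6% to 20.4%. The Pol IV span reached beyond ZMP by similar medians on both sides in arms, 111 to 140 bases on the left and 111 to 146 bases on the right. In the 960 arm regions that overlapped no protein-coding gene, Pol IV extended 108 to 137 bases beyond ZMP toward the nearest gene and 105 to 162.5 bases away from it.

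The width ratio differed with the strength of Pol IV. Over the quartiles of Pol IV percentile, from weakest to strongest, the median log2 ratio of ZMP over Pol IV width at co-occupied regions was -0.24, -0.44, -0.53 and -0.63 in arms. In pericentromeres it was 0.36, -0.21, -0.57 and -0.96. In the weakest Pol IV quartile of the pericentromeres ZMP peaks were therefore the wider ones. Over the quartiles of ZMP percentile in arms the ratio ran the other way, with -0.84, -0.64, -0.50 and -0.38. In pericentromeres it showed no such order, with -0.69, -0.33, -0.35 and -0.44. A peak's width and its fold come from the same signal and are not independent measures.

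Strong ZMP regions tended to be strong Pol IV regions, less closely than replicates of 1 protein followed each other. Over the 1710 arm regions the Spearman correlation of ZMP and Pol IV percentiles was 0.51 and 0.33 for ZMP-HA replicate 1 with WT NRPD1-HA replicates 1 and 2, and 0.56 and 0.46 for ZMP-HA replicate 2. Replicates correlated at 0.74 for ZMP and 0.87 for Pol IV. Over the 833 pericentromeric regions the correlations between proteins were 0.38, 0.20, 0.38 and 0.34, with 0.41 between the ZMP replicates and 0.81 between the Pol IV replicates. The ZMP replicates thus ranked pericentromeric regions little more alike than ZMP-HA replicate 1 and WT NRPD1-HA replicate 1 did. These correlations describe regions that share sequence, mappability and the selection for a peak in every list, and no test was made of them.

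**Figure D5:**
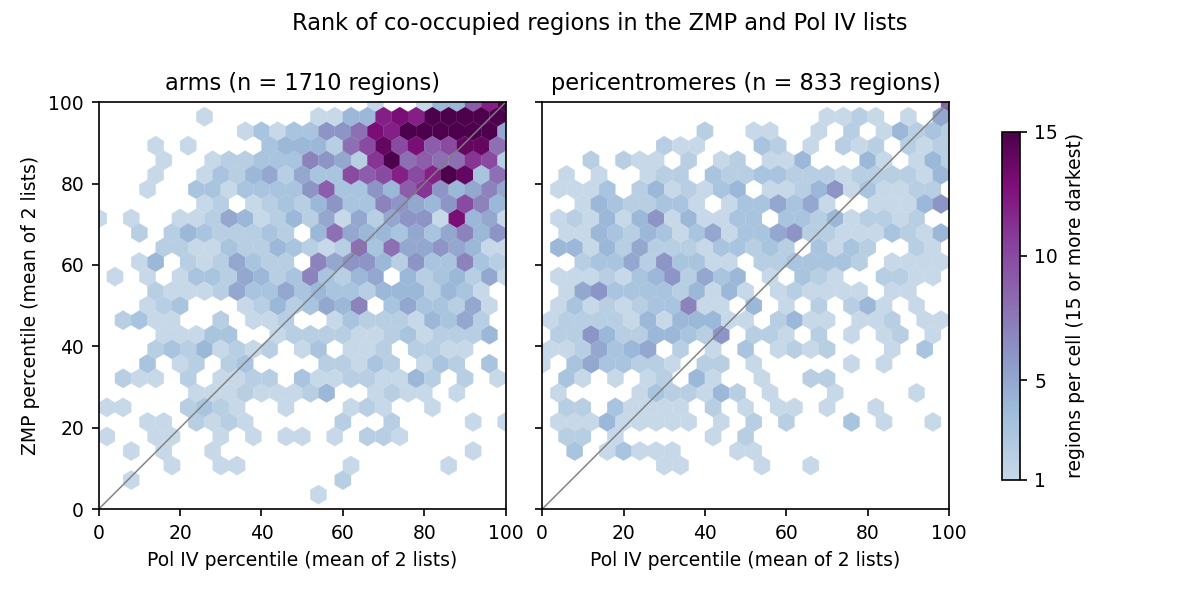
Mean ZMP percentile (vertical axis) against mean Pol IV percentile (horizontal axis) of each co-occupied region within its own cleaned lists, counted in hexagonal cells; the grey line marks equal ranks. Arm regions crowd at the top right, with median percentiles of 81.1 and 80.1 for ZMP and 78.4 and 72.2 for Pol IV, while pericentromeric regions lie mostly above the line, at 66.3 and 60.1 for ZMP and 47.2 and 40.3 for Pol IV.

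Co-occupied regions of the pericentromeres ranked higher among ZMP peaks than among Pol IV peaks. Their median percentiles were 66.3 and 60.1 in the ZMP-HA lists, against 47.2 and 40.3 in the WT NRPD1-HA lists, and both ZMP libraries were above both Pol IV libraries. The median difference in percentile, ZMP minus Pol IV, averaged 12.3 points (range 5.63 to 18.7 over the 4 pairs, SD 5.55), against 3.996 points between the ZMP replicates and 1.502 points between the Pol IV replicates. In arms it averaged 3.37 points (0.64 to 5.94, SD 2.54), against 0.25 points between the ZMP replicates and 2.71 points between the Pol IV replicates. Its lowest pair was thus below the Pol IV replicate difference. Without ZMP-HA replicate 1 the pericentromeric mean was 6.94 points, and leaving out each library in turn gave 2.01 to 5.86 points in arms. These means were over the regions with a peak in all remaining lists. The exact permutation test, two-sided, of library medians gave p = 0.333 in each compartment, the smallest possible. ZMP ranked higher in all 4 pairs of libraries at 685 arm regions (40.1%) and 360 pericentromeric regions (43.2%), and Pol IV at 452 (26.4%) and 151 (18.1%).

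The regions with the widest gaps in rank were at genes and pseudogenes as well as between genes. The arm region in which Pol IV most outranked ZMP (chr1:18093256-18096979) overlapped YUC10, a gene of the YUCCA family of auxin biosynthesis enzymes, and AT1G48912. Its percentiles were 22.3 and 19.1 for ZMP and 97.9 and 98.4 for Pol IV, with folds of 1.98 and 1.86 for ZMP and 25.1 and 31.9 for Pol IV. ZMP covered 571 and 380 bases there and Pol IV 3457 and 3724 bases, with mean summits 896 bases apart. The next arm regions of this kind lay at cytochrome P450 and phloem protein 2 pseudogenes, AT3G44245 and downstream of AT2G02330. In pericentromeres the widest gap toward Pol IV was at chr3:15132549-15135468, with percentiles of 34.0 and 11.7 for ZMP and 94.0 and 97.7 for Pol IV, where the ZMP summit lay in the pseudogene AT3G43146 and the Pol IV summit 1301 bases upstream of it.

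Where ZMP most outranked Pol IV, ZMP percentiles lay between 71.9 and 90.6 and Pol IV percentiles at 22.4 or below. At chr2:2499859-2501564, counted as arm by gene density and near the pseudogene AT2G06335, percentiles were 73.3 and 71.9 for ZMP and 2.15 and 1.42 for Pol IV. Folds there were 2.74 and 2.46 for ZMP and 1.77 and 1.53 for Pol IV. The other such arm regions lay at the F-box gene AT4G03635, with 82.7 and 78.6 for ZMP and 11.7 and 14.3 for Pol IV, and at the pseudogene AT2G07160. In pericentromeres they lay at the pseudogenes AT3G32043 and AT3G43352 and at AT3G43574, annotated as a beta-galactosidase-like protein. The mean summits were in the coding sequence of AT3G43574 and upstream of AT3G43352. At AT3G43574 the percentiles were 75.8 and 80.1 for ZMP and 7.97 and 3.87 for Pol IV.

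The base composition at summits differed between the classes of region. The median GC content within 150 bases of ZMP summits of co-occupied arm regions was 41.9% and 40.9% in replicates 1 and 2, and 40.5% and 38.5% around Pol IV summits. At Pol IV sites without ZMP it was 32.9% and 31.9%, below the 36.2% median of all windows of the arms, and at ZMP sites without Pol IV it was 45.9% and 44.9%. In pericentromeres, co-occupied regions had 47.5% and 46.2% at ZMP summits and 47.2% and 43.5% at Pol IV summits, against 36.5% and 35.5% at Pol IV sites without ZMP and 37.2% over all windows. ZMP sites without Pol IV had 46.2% and 45.5% there. In each replicate this was not above the co-occupied ZMP summits, unlike in arms. WT NRPD1-HA replicate 2, whose summits lay farther from those of ZMP, had the lower GC content of the 2 Pol IV libraries in each class. In both compartments each Pol IV library was higher at co-occupied regions than either was at Pol IV sites without ZMP. GC content also affects how fragments amplify, and its part in the calls was not tested.

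Annotation at the summit base, which does not depend on the width of a peak, differed in the same way. In co-occupied arm regions 24.8% and 24.5% of ZMP summits and 19.3% and 16.4% of Pol IV summits lay in a pseudogene, the class under which RefSeq files many transposon-derived loci, against 4.04% of bases sampled evenly along the arms. Of Pol IV sites without ZMP, 4.67% and 4.10% did, and of ZMP sites without Pol IV 55.6% and 54.4%. The last value was 60.3% and 57.5% over the 146 sites with no removed Pol IV peak. In pericentromeres 55.3% and 54.0% of ZMP summits and 45.4% and 43.0% of Pol IV summits of co-occupied regions were in pseudogenes, against 14.9% and 14.0% at Pol IV sites without ZMP and 36.9% of evenly sampled bases. The share was higher still at pericentromeric ZMP sites without Pol IV, with 71.15% and 72.45% of ZMP summits. Protein-coding genes held 23.5% and 22.5% of ZMP summits and 21.4% and 18.9% of Pol IV summits of co-occupied arm regions, against 61.5% of sampled bases. Pol IV summits without ZMP were in no annotated gene in 78.4% and 80.3% of arm cases, against 55.3% and 61.2% for Pol IV summits of co-occupied regions.

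H3K4me3, the mark of active gene starts, touched 18.0% of co-occupied arm regions and 19.9% of pericentromeric ones, against 6.65% and 8.54% of Pol IV sites without ZMP. Co-occupied regions were also wider, with a median Pol IV width in arms of 1339.5 and 1388 bases, against 562 and 694 bases at Pol IV sites without ZMP, and the part of width in this was not tested. At the summits themselves, 1.579% and 2.398% of ZMP summits and 3.22% and 2.81% of Pol IV summits of co-occupied arm regions lay under an H3K4me3 peak, compared with 7.54% of sampled bases. In pericentromeres the shares were 1.08% and 1.92% of ZMP summits and 3.001% and 2.281% of Pol IV summits, compared with 2.07% of sampled bases, so Pol IV summits there were not below it. In the zmp-2 mutant, both NRPD1-HA lists, cleaned against set A, held a peak at 94.5% of co-occupied arm regions (93.3 to 95.5) and at 65.8% of co-occupied pericentromeric regions (62.5 to 69.0). At Pol IV sites without ZMP these shares were 84.1% in arms and 60.7% in pericentromeres. Strength was not matched between the classes, and co-occupied regions of the arms were the stronger Pol IV sites. The 129 co-occupied pericentromeric regions with a peak in neither zmp-2 list made up 15.5%, and the 23 such arm regions 1.35%. At Pol IV sites without ZMP the shares were 12.8% (42 of 328) in pericentromeres and 3.65% (57 of 1563) in arms.

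A co-occupied region lay within 1 kb of 2575 of 27444 protein-coding genes, or 9.38%. Among the 24 listed genes of the RdDM machinery it was 3, and a list so short cannot be told from that background. These were DMS3, a protein of the complex that helps Pol V transcribe, MORC6, an ATPase of gene silencing, and CLSY1 (AT3G42670 by RefSeq), a chromatin remodeler of the family that brings Pol IV to its targets. At DMS3 the region ended 290 bases from the gene, with folds of 6.41 and 4.62 for ZMP and 11.4 and 5.24 for Pol IV. At MORC6 the folds were 3.47 and 3.64 for ZMP and 7.30 and 5.76 for Pol IV, and at CLSY1 2.35 and 2.36 for ZMP and 7.84 and 6.48 for Pol IV. NRPD1, CLSY3 and CLSY4 had a Pol IV site within 1 kb but no co-occupied region, and NRPD1 itself is also the transgene.

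Of 10 genes of DNA methylation and demethylation 1 qualified, IBM1, a histone H3 lysine 9 demethylase, with the region on the gene and folds of 3.11 and 3.37 for ZMP and 2.61 and 2.02 for Pol IV. ZMP had the higher fold there and at QQS below, but folds of the separate experiments are not on a common scale. Of 6 genes known as targets of silencing 1 qualified, QQS, an Arabidopsis-specific gene of starch metabolism, with 2.63 and 2.59 for ZMP and 2.35 and 2.17 for Pol IV. FWA, a homeobox gene silenced by methylation of its promoter repeats, and SDC, an F-box gene, had Pol IV sites and no co-occupied region. The floral identity gene AP2 had a co-occupied region 256 bases from it, with folds of 5.82 and 5.96 for ZMP and 6.65 and 3.38 for Pol IV.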

How the data were processed

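Per the submitters' notes and the study's methods, the authors used Trim Galore (0.4.3) for trimming, bowtie2 (2.2.9) for alignment to TAIR10 and MACS (2.2.6) on read pairs, against input, for peak calling. Each deposited list gives per peak the position, the authors' fold enrichment at the summit (a linear ratio), the −log10 p-value, the −log10 q-value (every deposited q-value was 0.05 or less) and the summit offset. Peak lists hold no read counts, and how reads with several matches were treated is not given in the sources used here. The antibody field of the set A controls reads none, while the titles say IP.

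Lists were cleaned, merged and compared in Python 3.11.15 (pandas 2.3.3, SciPy 1.17.1). In each region the strongest peak of a list gave its summit and fold, and all its peaks its width. Values between proteins were medians over regions for the 4 pairs of libraries, and replicate pairs gave the error. The exact permutation test ran over the 3 divisions of 4 libraries into pairs. Intervals are exact binomial (Clopper-Pearson, 95%). Genes and sequences were from RefSeq TAIR10.1, whose nuclear chromosomes match the lists (0 peaks past a chromosome end). Organelle peaks were left out, and transposon annotation was not used here. Code was tested on simulated data. Alternatives were a q-value of 0.01, other cleaning, lists of equal length, a reciprocal overlap of 50%, an irreproducible discovery rate (IDR) of 0.05, nearest summits, strongest-peak width, p-value ranks, a density limit of 25%, leaving out each library, and a replicate block.

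Regions named were, per compartment, the 5 with the highest lowest percentile, the 3 with the most separated summits, and the 3 with the widest rank gap each way. The members and gene lists were chosen with earlier results of these data known.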

Additional observations from a re-analysis of the deposited data

How the results depend on the processing

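Of 144 values under alternatives, 118 stayed within a set limit of the value reported, 26 moved and 0 changed sign. The limit was a fixed ratio for the count of regions and the exact binomial interval for shares. For the other measures it was the SD over the 4 pairs of libraries, which are not independent, so a wide spread made it loose. Counts, shares and summit distances cannot be negative. Only the width ratio, the rank correlation and the rank difference could have changed sign. The order of arms and pericentromeres held under every alternative run for the share of ZMP sites that were co-occupied (11 alternatives), the summit distance (14), the rank correlation (14) and the rank difference (14), but for the width ratio pericentromeres were above arms in 11 of 14. An IDR of 0.05 or less in both proteins left 982 co-occupied regions, and raised the share of ZMP sites to 87.5% in arms and 64.1% in pericentromeres, the rank difference in arms to 6.82 points, and lowered the pericentromeric summit distance to 178 bases. The share was also 87.2% in arms and 52.0% in pericentromeres with no removal of background peaks, 83.6% and 48.7% with removal against all 4 lists, 66.1% and 35.6% with a reciprocal overlap of 50%, 73.1% and 37.6% with pericentromeres at 25% of the median density, and 39.5% in pericentromeres with lists of equal length. The pericentromeric distance was 177 bases with nearest summits and 150 bases with 1 peak in each list. Leaving out each library gave 68.8% to 82.0% in arms and 34.7% to 54.3% in pericentromeres for the share, 182 (without WT NRPD1-HA replicate 2) to 435 bases for the pericentromeric distance and -0.63 (without ZMP-HA replicate 1) to -0.46 for the log2 width ratio in arms. It gave -0.70 (without ZMP-HA replicate 1) to -0.24 (without ZMP-HA replicate 2) for the ratio in pericentromeres, where it was -0.25 without WT NRPD1-HA replicate 2. The rank difference was 2.13 and 2.24 points in arms without ZMP-HA replicates 1 and 2, and 5.86 and 2.01 points without WT NRPD1-HA replicates 1 and 2. In pericentromeres it was 6.94 (without ZMP-HA replicate 1) to 17.4 points (without WT NRPD1-HA replicate 1). Leaving out a library also changed the sites and regions, since a peak was then needed only in the remaining lists. The cause of these shifts was not tested.

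The replicate numbers were given within separate experiments and share only a number. With a replicate block, the pairs of same-numbered libraries alone, the summit distance was 116 and 360 bases, the log2 width ratio -0.51 and -0.46, the rank correlation 0.49 and 0.36 and the rank difference 3.45 and 12.3 points in arms and pericentromeres. Each was within the SD of the value over all 4 pairs. These are 2 of the same 4 pairs, so the closeness is not a separate check. Depth limits the classes without a peak of the other protein, since signal below the calling threshold leaves no peak, and 2 libraries per protein cannot give an exact p under 0.333.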

Other observations

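The strongest peaks were shared in large part between the proteins. Of the 100 regions with the highest fold in each list, 50, 49, 69 and 65 were shared between ZMP-HA replicate 1 and WT NRPD1-HA replicates 1 and 2 and between ZMP-HA replicate 2 and the same 2 libraries. ZMP replicates shared 74 and Pol IV replicates 89. Pericentromeric regions made up 9 and 14 of the 100 in the ZMP-HA lists and 18 and 15 in the WT NRPD1-HA lists, while they made up 32.8% of co-occupied regions. Among the 500 strongest peaks of each list, the regions shared with WT NRPD1-HA replicate 2 were 28.5% and 34.1% of those of ZMP-HA replicates 1 and 2, against 44.9% and 47.6% with WT NRPD1-HA replicate 1. WT NRPD1-HA replicate 2, the library of higher background coverage, thus shared fewer of its 500 strongest with either ZMP-HA list, and depth was not tested as a cause.

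CG dinucleotides, the symmetric target of maintenance methylation, numbered a median of 10 and 9 within 150 bases of ZMP summits and 10 and 8.5 around Pol IV summits of co-occupied arm regions, against 12 and 12 at ZMP sites without Pol IV, 7 and 7 at Pol IV sites without ZMP and 6 over all windows of the arms. In pericentromeres they numbered 13 and 12 at ZMP summits and 13 and 10 at Pol IV summits, against 11 and 10 at ZMP sites without Pol IV, 8 and 7 at Pol IV sites without ZMP and 6 over all windows.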
